A study of Mus musculus with 51 samples.

Results

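The genes described here write, copy and erase DNA methylation, or feed the enzymes that erase it. They were chosen by name and number 10 of the 28580 genes listed in either set of femur RNA-seq tables: the TET dioxygenases Tet1, Tet2 and Tet3, the thymine DNA glycosylase Tdg, the methyltransferases Dnmt1, Dnmt3a and Dnmt3b, the hemimethylated-DNA reader Uhrf1, and the isocitrate dehydrogenases Idh1 and Idh2. All femurs came from C57BL/6 mice. In the vitamin C (VitC) experiment, 20-week-old wild-type mice (WT) were compared with Gulotm1Mae mice, which lack the last enzyme of ascorbate synthesis and drank water with 3.3 g/L VitC either for all 20 weeks (VitC+) or for 15 weeks followed by 5 weeks without it (VitC+/-). In the Tet experiment, 11-week-old mice carried Prrx1-Cre with wild-type Tet alleles (Ctrl), with floxed Tet1 (Tet1 cKO), floxed Tet2 (Tet2 cKO) or both (Tet1/2 cKO). All 4 of these groups carried the Cre. Each of the 7 groups had 3 RNA-seq libraries, and femurs of 4 groups and MC3T3-E1 cells, a calvarial osteoblast line, were also profiled for 5-hydroxymethylcytosine (5hmC) by hMeDIP-seq. The cells were grown without VitC or with 50 µg/ml VitC, for 28 days in the case of hMeDIP-seq. Cells without and with VitC were also profiled for the histone marks H3K27me3 and H3K9me3 by ChIP-seq.

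DNMT3A and DNMT3B set methyl groups on cytosine, and DNMT1, brought to newly replicated DNA by UHRF1, copies them. TET enzymes oxidize 5-methylcytosine to 5hmC and further to bases that TDG removes, and they need iron, 2-oxoglutarate and, for full activity, VitC. IDH1 in the cytosol and IDH2 in mitochondria make 2-oxoglutarate from isocitrate.

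The VitC femurs were given as RPKM, which are reads scaled to transcript length and library depth, here also divided by a scaling factor per library (0.754 to 1.10). WT 1 was shallower than the others, at 7.61 M reads in genes against 31.1 to 47.3 M, as estimated from the steps between low values. The Tet femurs were given as normalized counts and had 28.6 to 49.8 M reads in genes. Prrx1-Cre acts in limb mesenchyme, so blood-forming cells of the marrow keep their floxed alleles, and a count over a whole gene includes exons that the Cre leaves in place. The femurs were flushed of marrow and minced, marrow markers were still detected, and in such bulk RNA fewer cells of a type and less RNA per cell cannot be told apart. Osteoblast and osteocyte markers were detected in all groups, with none of 14 at 0 throughout a group. Gulo was at 0.539, 0.443 and 0 RPKM in WT, at 0.239, 0.034 and 0.027 in VitC+, and at 0.012, 0.013 and 0.018 in VitC+/- femurs, too low in a tissue that hardly uses it to check the labels.

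Idh2 was the most abundant member in the VitC femurs, with a mean of 41.9 RPKM over the 9 libraries. Uhrf1 (32.6) and Idh1 (32.2) followed, and these neighbours could not be ordered, since Uhrf1 was above Idh1 in 3 of 9 libraries. Dnmt1 came next at 19.1 RPKM and was above Tet3 (6.98) in 9 of 9 libraries. Tet3, Dnmt3a (6.26) and Tet2 (5.68) lay close together, with Tet3 above Dnmt3a in 6 libraries and Dnmt3a above Tet2 in 7. Dnmt3b (1.75), Tet1 (0.461) and Tdg (0.417) were lowest. In the Tet femurs, counts divided by exon length gave a similar ladder of normalized counts per kb: Idh1 at 1616, Uhrf1 at 1502, Dnmt1 at 1272, Idh2 at 680, Tet3 at 304, Tet2 at 243, Dnmt3a at 204, Tdg at 139, Dnmt3b at 65.2 and Tet1 at 27.6. Neighbours in this order were separated in all 12 libraries only for Idh2 over Tet3 and Dnmt3b over Tet1. Tdg stood near Tet1 in the first experiment and between Dnmt3a and Dnmt3b in the second, and is described with its near-identical copies below.

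VitC withdrawal was examined first by comparing VitC+/- with VitC+ femurs, which share the Gulo deletion. Among the erasers, Tet2 rose and Tet3 showed a smaller difference that did not pass the test, while Idh1 fell. These were 2 of the 8 members that passed the filter on low values (1 RPKM in 3 libraries), beside 13.4% of all 12586 genes tested with limma at an adjusted p under 0.05 (5.93% higher and 7.52% lower). Groups did not overlap for 5 of the 8 (Tet2, Tet3 and Dnmt3b higher, Dnmt3a and Idh1 lower), beside 40.5% of all genes. Tet1 and Tdg were below the filter.

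Tet2, the TET enzyme most used in blood-forming cells, was at 3.18, 4.72 and 3.70 RPKM in VitC+ and at 8.85, 8.82 and 6.62 RPKM in VitC+/- femurs. Every VitC+/- library lay above every VitC+ library. The means were 8.10 ± 1.28 against 3.87 ± 0.78 RPKM (SD, n = 3), a 2.09-fold difference, with a log2 fold change of 0.98 (SE 0.20, 95% interval 0.54 to 1.42) on the log2(RPKM + 0.5) scale and a limma adjusted p of 0.0153. WT femurs lay between, at 4.21, 6.02 and 4.99 RPKM, also without overlap with VitC+/-. Against WT the log2 fold change of Tet2 was 0.63 (SE 0.20, limma adjusted p = 0.0381). The VitC+/- group is shared by these comparisons, so they are not independent. The adjusted p for VitC+/- against VitC+ was 0.0562 without VitC+ 1, 0.0587 without VitC+ 3 and 0.066 without VitC+/- 1, with the log2 fold change between 0.87 and 1.12 over all settings tried. Against WT it passed in 4 of the 9 fits that left out 1 library and not without WT 1, WT 3, VitC+ 3, VitC+/- 1 or VitC+/- 2, nor without the filter, without the further scaling or in a fit of the groups compared alone (limma adjusted p of 0.0231 to 0.122 over all settings).

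Tet3 was at 4.70, 6.35 and 5.49 RPKM in VitC+, at 7.57, 9.94 and 7.39 in VitC+/- and at 6.17, 7.96 and 7.26 in WT femurs. The VitC+/- libraries were all above the VitC+ libraries but overlapped WT. Against VitC+ the log2 fold change was 0.55 (SE 0.18, limma adjusted p = 0.0673). Tet1, the low member of the family, was at 0.36, 0.62 and 0.611 RPKM in VitC+, at 0.177, 0.229 and 0.272 in VitC+/- and at 0.665, 0.752 and 0.466 in WT femurs. All VitC+/- libraries were below all libraries of both other groups. With no filter (19717 genes), Tet1 had a log2 fold change of -0.50 (SE 0.15, limma adjusted p = 0.0795) against VitC+ and of -0.63 (SE 0.15, limma adjusted p = 0.0224) against WT, and the pseudocount of 0.5 holds such values close to 0 at this level. Tdg, at 0.181 to 0.92 RPKM, overlapped in all pairs of groups.

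As a description, the make-up of the TET family differed between groups. Tet2 made up 48.7% ± 3.98 (SD, n = 3) of the summed TET RPKM in VitC+/- femurs, against 38.9% ± 1.33 in VitC+ and 39.4% ± 1.39 in WT. Tet3 made up 49.9%, 55.8% and 55.7%, and Tet1 1.39%, 5.3% and 4.93%. A share does not depend on the scaling of a library, and for Tet1, Tet2 and Tet3 the VitC+/- shares did not overlap those of either other group. The summed TET level was 16.6 ± 2.36 RPKM in VitC+/-, 9.91 ± 1.73 in VitC+ and 12.8 ± 1.85 in WT femurs (SD, n = 3).

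**Figure D1:**
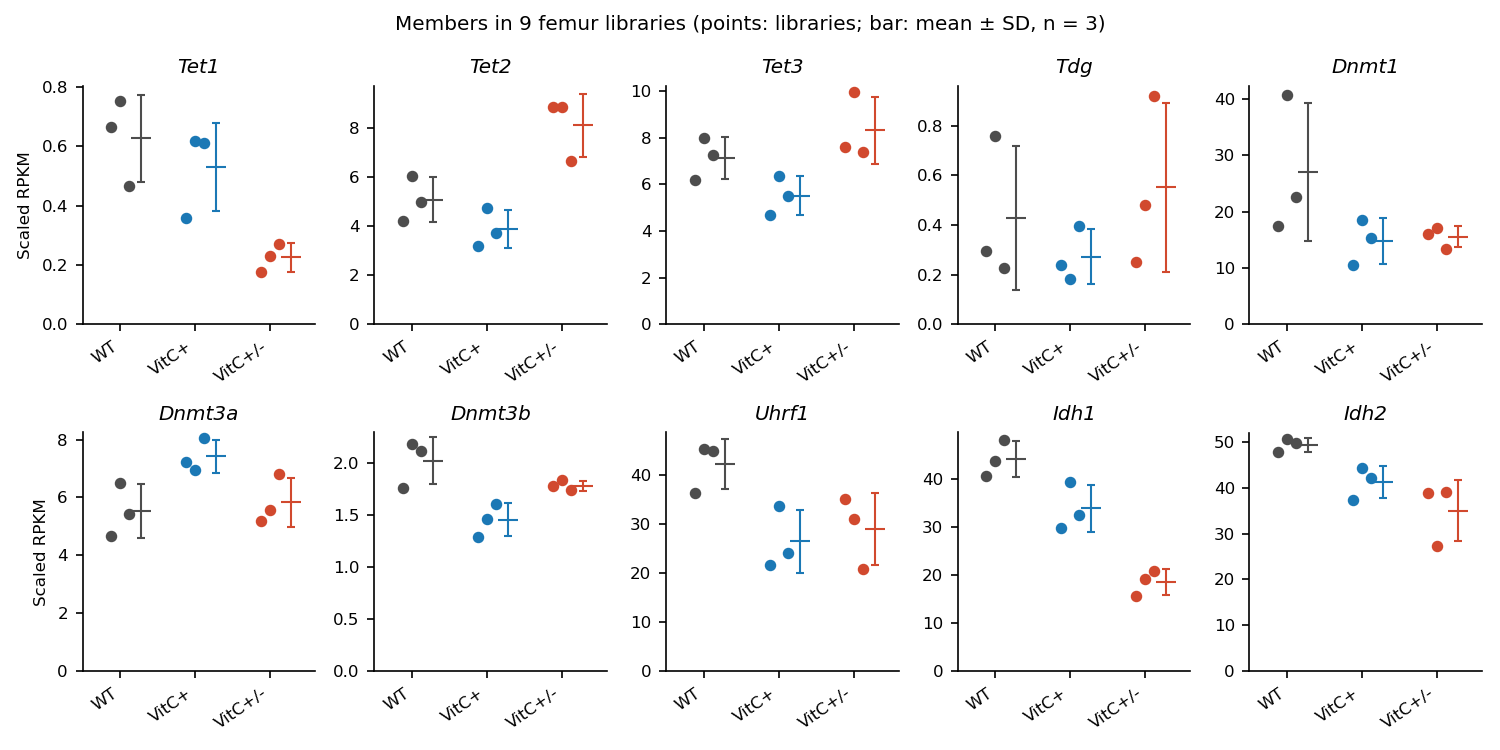
Scaled RPKM of the 10 members (vertical axes, each from 0) in WT, VitC+ and VitC+/- femurs, with points for libraries and bars for the mean ± SD (n = 3). Tet2 is highest in VitC+/- (6.62 to 8.85) and Idh1 lowest there (15.6 to 20.9), without overlap with either other group.

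No writer passed the test for VitC+/- against VitC+. Dnmt1 was at 10.5, 18.5 and 15.3 RPKM in VitC+ and at 16.1, 17.1 and 13.5 in VitC+/- femurs, with 17.5, 40.8 and 22.6 in WT. The VitC+ and VitC+/- libraries overlapped and WT 2 stood high. The log2 fold change against VitC+ was 0.10 with a 95% interval from -0.58 to 0.78, so a change within that range was not excluded. Dnmt3a, the main de novo methyltransferase of adult cells, was at 7.22, 6.97 and 8.07 RPKM in VitC+, at 5.17, 5.56 and 6.80 in VitC+/- and at 4.66, 6.50 and 5.42 in WT femurs. The VitC+ libraries were above all others, with a log2 fold change of -0.33 for VitC+/- against VitC+ (limma adjusted p = 0.215) and of 0.40 for VitC+ against WT (limma adjusted p = 0.199).

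Dnmt3b was at 1.29 to 1.6 RPKM in VitC+ and 1.73 to 1.83 in VitC+/- femurs, with a log2 fold change of 0.23 (limma adjusted p = 0.395). Uhrf1 was at 21.6, 33.8 and 24.1 RPKM in VitC+, at 35.1, 31.0 and 20.8 in VitC+/- and at 36.3, 45.4 and 44.9 in WT femurs. Both Gulotm1Mae groups lay below WT and overlapped each other. Uhrf1 had a log2 fold change of 0.12 against VitC+ (limma adjusted p = 0.759), -0.56 against WT (limma adjusted p = 0.0864) and, for VitC+ against WT, -0.68 (limma adjusted p = 0.143). Dnmt1 made up 76.9% of the summed DNMT RPKM in WT, 61.7% in VitC+ and 66.9% in VitC+/- femurs, and Dnmt3a 16.9%, 32.1% and 25.4%.

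Of the 2-oxoglutarate suppliers, Idh1 fell against both other groups, and Idh2 passed the test against WT and not against VitC+, a difference that was not tested. Idh1 was at 29.8, 39.4 and 32.6 RPKM in VitC+, at 15.6, 19.1 and 20.9 in VitC+/- and at 40.8, 43.8 and 48.2 in WT femurs. The 3 groups did not overlap, with WT highest and VitC+/- lowest. Against VitC+ the means were 18.5 ± 2.69 and 33.9 ± 4.96 RPKM (SD, n = 3), a fold of 0.546, with a log2 fold change of -0.86 (SE 0.16, 95% interval -1.21 to -0.50) and a limma adjusted p of 0.0111. The adjusted p was 0.0883 without the further scaling and 0.05, just above the threshold, without VitC+/- 1. Against WT the log2 fold change was -1.24 (SE 0.16) and the limma adjusted p 0.0011, and this call held in all 16 other settings. Idh2 was at 37.5, 44.3 and 42.1 RPKM in VitC+, at 38.9, 27.2 and 39.0 in VitC+/- and at 47.8, 50.7 and 49.8 in WT femurs. VitC+/- overlapped VitC+ and lay below WT, with a log2 fold change of -0.25 against VitC+ (limma adjusted p = 0.319) and of -0.51 (SE 0.16, limma adjusted p = 0.0368) against WT. The call against WT was lost in 6 of the 9 fits that left out 1 library (WT 2, WT 3, VitC+ 2, VitC+ 3, VitC+/- 1 or VitC+/- 2), without the further scaling, under upper quartile scaling and in a fit of the groups compared alone. Without VitC+/- 2 the log2 fold change of Idh2 was -0.33.

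Against WT, 3 of the 8 tested members passed (Tet2 higher, Idh1 and Idh2 lower), beside 31.3% of all genes, and 5 did not overlap (Tet2 higher, Dnmt1, Uhrf1, Idh1 and Idh2 lower), beside 42.7%. With VitC kept in the water, VitC+ against WT called no gene at all (0% of 12586), while 22% of genes and 4 of the 8 members (Dnmt1, Dnmt3a, Uhrf1 and Idh1) had an unadjusted p under 0.05 in limma. Dnmt3a was then higher, and Dnmt3b, Uhrf1, Idh1 and Idh2 lower, without overlap between the groups, beside 28.7% of all genes. In this comparison 14 of 14 osteoblast and 7 of 8 osteoclast markers had an unadjusted p under 0.05 in limma, with median log2 fold changes of 1.75 and 1.28. So had 16 of 20 proliferation genes (median -0.65), 5 of 11 neutrophil markers (-0.88) and 1 of 7 adipocyte markers (1.10). No B-cell precursor, erythroid or skeletal muscle marker had. The part of these lists in the members' values was not tested.

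**Figure D2:**
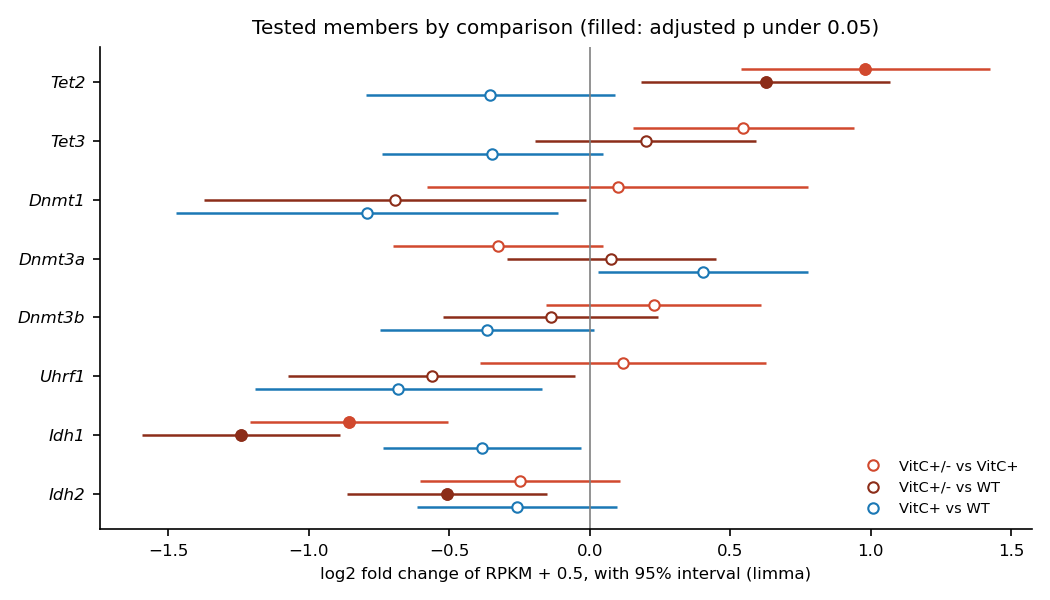
Log2 fold changes of the 8 tested members with 95% limma intervals (horizontal axis), for VitC+/- against VitC+, VitC+/- against WT and VitC+ against WT, with filled points where the adjusted p was under 0.05. Tet2 (0.98) and Idh1 (-0.86) are filled for VitC+/- against VitC+, and Idh2 (-0.51) for VitC+/- against WT.

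Markers of other cell types moved with these differences. B-cell precursor markers summed to 15.9 to 30 RPKM in VitC+/- against 87.9 to 166 in VitC+ femurs, with 9 of 10 lower. Osteoblast and osteocyte markers summed to 715 to 4522 against 5653 to 11018 RPKM (7 of 14 lower), with 1073 to 4046 in WT, so that VitC+ was the group that stood apart. Neutrophil markers summed to 7483 to 25053 against 30306 to 48196 RPKM (2 of 11 lower) and osteoclast markers to 2933 to 6497 against 1882 to 2582 (4 of 8 higher). Of 8 erythroid markers 1 was higher, and none of 7 adipocyte or 7 skeletal muscle markers was called. Against WT, 11 of 11 neutrophil, 9 of 10 B-cell precursor and 3 of 14 osteoblast markers were lower, and 7 of 8 osteoclast, 5 of 7 adipocyte, 1 of 8 erythroid and 1 of 14 osteoblast markers higher. Their part in the values of Tet2, Idh1 and Idh2 was not tested. The 20 proliferation genes summed to 571 to 789 RPKM in VitC+/-, 551 to 790 in VitC+ and 811 to 1279 in WT femurs, beside the levels of Dnmt1 and Uhrf1, and the part of dividing cells in those levels was not tested.

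Genes that work with these enzymes were read from 6 lists with 85 genes in all, of which 76 were tested. Against VitC+, 3 rose and 3 fell, fewer of those tested than the 13.4% called over all genes (5.93% higher and 7.52% lower), and the median log2 fold change was 0.00, against 0.02 for all genes. Gadd45g, a stress-induced factor linked to active demethylation, rose from 18.8 ± 4.14 to 53.4 ± 17.5 RPKM (log2 fold change 1.46, limma adjusted p = 0.0125). Got1, an aminotransferase that consumes or yields 2-oxoglutarate, rose by 1.08 on the log2 scale (limma adjusted p = 0.0063), and Cdt1, a replication licensing factor, by 0.67 (limma adjusted p = 0.0442).

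D2hgdh, which turns the TET inhibitor 2-hydroxyglutarate into 2-oxoglutarate, fell from 4.83 ± 0.197 to 2.35 ± 0.527 RPKM (log2 fold change -0.92, limma adjusted p = 0.0125). Ogt, a glycosyltransferase bound by TET proteins, fell by 0.49 on the log2 scale (limma adjusted p = 0.0294), and Ogdh, the dehydrogenase that uses 2-oxoglutarate in the citric acid cycle, by 0.48 (limma adjusted p = 0.0496). None of 10 base excision repair genes, 9 readers of modified DNA or 10 methyl donor genes was called in this comparison.

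Against WT, 3 of the 76 list genes rose and 21 fell, beside 15.3% of all genes higher and 15.9% lower, so that as many were called as the 31.3% over all genes gives, and the median log2 fold change was -0.27, against 0.01 for all genes. Those that fell included 10 of 20 proliferation genes, 4 of 10 base excision repair genes, 4 of 17 genes of 2-oxoglutarate and its competitors, 2 of 10 of the methyl donor cycle and 1 of 10 partners and regulators. Gadd45g (2.03) and Got1 (1.03) were among those that rose, and Cdca7 (-1.31), a cofactor of the remodeller HELLS, Top2a (-1.08), a topoisomerase of dividing cells, and Parp1 (-1.03), a strand-break sensor, fell, each with an adjusted p under 0.05 in limma. No list gene was called for VitC+ against WT (median log2 fold change -0.34).

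In the Tet femurs the targeted genes were read first. Tet1 was at 374, 420 and 435 normalized counts in Ctrl, at 630, 532 and 773 in the libraries labelled Tet1 cKO, at 691, 349 and 538 in Tet2 cKO and at 485, 415 and 442 in Tet1/2 cKO. It was lower in neither group with floxed Tet1. The log2 fold change was 0.64 in Tet1 cKO (SE 0.25, 95% interval 0.08 to 1.2, limma adjusted p = 1.0) and 0.13 in Tet1/2 cKO (95% interval -0.43 to 0.69). The library labels are not borne out by this gene-level count, which cannot check them, since undeleted exons are counted too. Tet2 was at 2236, 2512 and 2251 normalized counts in Ctrl, at 2433, 2584 and 2524 in Tet1 cKO, at 2245, 2210 and 1834 in Tet2 cKO and at 2970, 1851 and 2351 in Tet1/2 cKO. The groups with floxed Tet2 overlapped Ctrl, with log2 fold changes of -0.16 (95% interval -0.54 to 0.22) and 0.01 (95% interval -0.37 to 0.39). A gene-level count sees undeleted exons and any marrow cells left in the bone, whose part was not tested, and every direction below is between libraries as labelled.

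Whether another TET gene was higher where Tet1 or Tet2 was targeted was read from Tet3, which was left intact. Tet3 was at 3788, 4653 and 3434 normalized counts in Ctrl, at 3548, 4144 and 4523 in Tet1 cKO, at 2966, 3936 and 3777 in Tet2 cKO and at 4477, 3657 and 4069 in Tet1/2 cKO. All groups overlapped. Tet3 had a log2 fold change of 0.05 in Tet1 cKO (95% interval -0.33 to 0.42), -0.15 in Tet2 cKO (-0.53 to 0.23) and 0.05 in Tet1/2 cKO (-0.33 to 0.42), and these comparisons share the Ctrl libraries. Over 6 libraries against 6, Tet3 differed by 0.12 with floxed Tet1 (95% interval -0.14 to 0.38) and by -0.08 with floxed Tet2 (-0.34 to 0.19). Tet3 made up 53.6%, 51.5%, 52.8% and 54.0% of the summed TET level per kb in the 4 groups in the same order, Tet2 42.5%, 42.8%, 41.7% and 41.8%, and Tet1 3.93%, 5.73%, 5.54% and 4.17%.

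**Figure D3:**
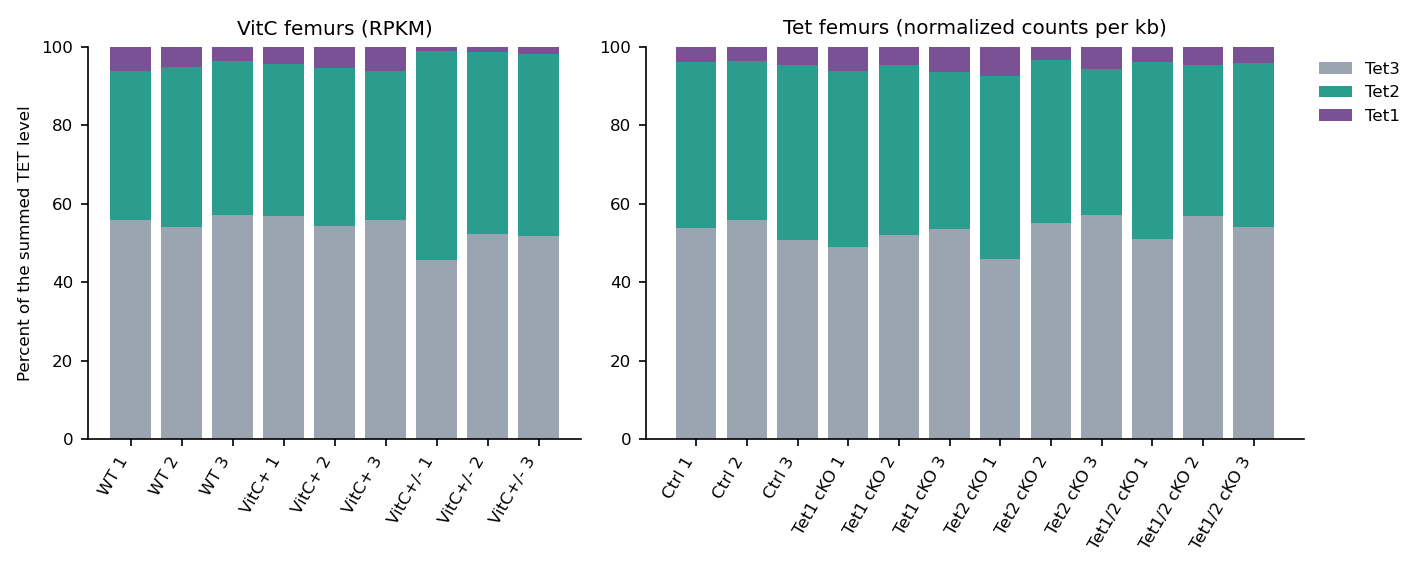
Share of Tet1, Tet2 and Tet3 in the summed TET level of each library, as percent of RPKM in 9 VitC femurs and of normalized counts per kb in 12 Tet femurs. Tet2 takes 46.4 to 53.3% in VitC+/- against 37.8 to 40.4% in VitC+, and Tet3 takes 46.0 to 57.2% in every Tet femur.

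Of all members, Tdg alone passed the test in the Tet femurs, and its near-identical copy Tdg-ps2 moved the other way. Tdg was at 835, 758 and 834 normalized counts in Ctrl, at 153, 205 and 155 in Tet1 cKO, at 156, 172 and 223 in Tet2 cKO and at 928, 790 and 701 in Tet1/2 cKO. The 6 libraries of the single cKOs lay far below the other 6, and Tet1/2 cKO overlapped Ctrl. The log2 fold change was -2.25 in Tet1 cKO (SE 0.22, limma adjusted p = 0.0086) and -2.15 in Tet2 cKO (SE 0.22, limma adjusted p = 0.0076), beside 0.0119% of 16780 genes called in each comparison, that is Tdg (lower, 0.00596%) and Tdg-ps2 (higher, 0.00596%) only. An unadjusted p under 0.05 was found for 2.28% and 2.19% of genes, with Tdg the only member in Tet2 cKO and Tdg and Tet1 in Tet1 cKO.

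Tdg-ps2, a processed pseudogene of Tdg, was at 21.1, 37.9 and 27.8 normalized counts in Ctrl, at 734, 700 and 827 in Tet1 cKO, at 689, 912 and 764 in Tet2 cKO and at 96.2, 25.9 and 21.1 in Tet1/2 cKO. It was high in the same 6 libraries in which Tdg was low, with log2 fold changes of 4.69 and 4.75 in the single cKOs. Tdg-ps2 made up 2.47 to 4.76% of the sum of both in Ctrl, 77.3 to 84.3% in Tet1 cKO, 77.4 to 84.1% in Tet2 cKO and 2.92 to 9.39% in Tet1/2 cKO.

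The sum of Tdg and Tdg-ps2 was 838 ± 36.5 normalized counts in Ctrl, 925 ± 50.5 in Tet1 cKO, 972 ± 121 in Tet2 cKO and 854 ± 154 in Tet1/2 cKO (SD, n = 3). Fitted as 1 gene, the log2 fold changes were 0.14 (95% interval -0.24 to 0.52), 0.21 (-0.17 to 0.58) and 0.01 (-0.36 to 0.39), and limma called no gene in any of the 3 comparisons with Ctrl. In the VitC tables, Tdg-ps2 appears under its older symbol Gm9855 and is listed at 0 in all 9 libraries. Reads of Tdg and Tdg-ps2 may be split by the counting, so the Tdg values of both experiments are uncertain. The call for Tdg was lost in Tet1 cKO without Ctrl 1, Ctrl 3, Tet1 cKO 1 or Tet1 cKO 3 and in Tet2 cKO without Ctrl 1, Ctrl 2, Ctrl 3 or Tet2 cKO 2, with log2 fold changes of -2.39 to -2.04 throughout. Whether the 6 libraries of the single cKOs were counted like the others was not tested, and counting and genotype cannot be told apart for Tdg.

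The copies are close enough for many reads to match both. In RefSeq, Tdg-ps2 lies on the minus strand at chr10:42052558-42055453 (GRCm38.p6), far from Tdg at chr10:82629814-82650799 on the plus strand. The Tdg coding sequence of 1266 bases was 98.3% identical to it, with 18 substitutions and 4 gap columns, and 61.2% of all 50-base windows of the Tdg mRNA (2126 of 3474) occurred in Tdg-ps2 without a mismatch. A further copy, Tdg-ps, was 98.7% identical and held 46.1% of the windows, and it was at 0 to 13.4 normalized counts in the Tet femurs. A coding stretch with 4 differences is shown to let the copies be compared, from chr10:82648578-82648697 (plus strand) for Tdg and chr10:42054136-42054255 (minus strand) for Tdg-ps2, with the differing bases in capitals. Counted from its first base, they are T5C, G33A, A39G and G50A, the Tdg base first, and the last 70 bases are shared.
Tdg: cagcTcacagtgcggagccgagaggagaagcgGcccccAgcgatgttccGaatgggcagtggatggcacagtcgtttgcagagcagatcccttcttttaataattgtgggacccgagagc
Tdg-ps2: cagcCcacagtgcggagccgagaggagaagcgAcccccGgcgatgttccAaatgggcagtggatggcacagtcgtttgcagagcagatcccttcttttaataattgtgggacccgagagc

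**Figure D4:**
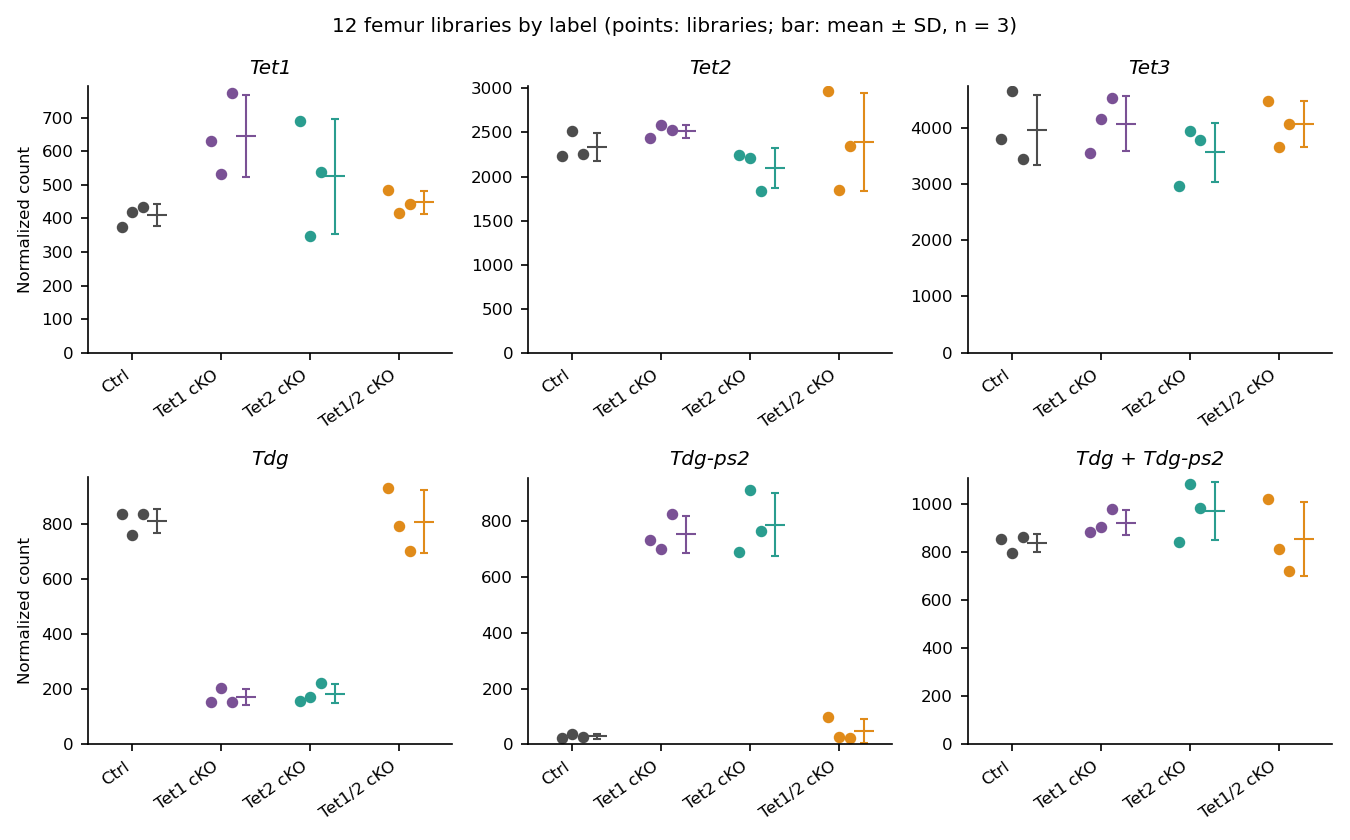
Normalized counts of Tet1, Tet2, Tet3, Tdg, Tdg-ps2 and the sum of Tdg and Tdg-ps2 (vertical axes, each from 0) in 12 Tet femurs by label, with points for libraries and bars for the mean ± SD (n = 3). Tdg falls to 153 to 223 in the single cKOs where Tdg-ps2 rises to 689 to 912, and their sum stays between 723 and 1085 in all libraries.

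The other members did not pass the test in any comparison of the Tet femurs. Dnmt1 ranged from 4649 to 12655 normalized counts within Ctrl alone, with 4268, 8129 and 6788 in Tet1 cKO, 4337, 8783 and 9806 in Tet2 cKO and 11183, 9202 and 9519 in Tet1/2 cKO. This spread left an interval from -0.46 to 1.27 around its log2 fold change of 0.40 in Tet1/2 cKO. Idh1 was at 3910, 4477 and 3864 normalized counts in Ctrl and at 3103, 3250 and 3103 in Tet2 cKO, below without overlap (log2 fold change -0.37, limma adjusted p = 1.0), while Tet1/2 cKO 1 stood high at 6608.

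Groups did not overlap for Tet1 and Dnmt3a (higher) and Tdg (lower) in Tet1 cKO, beside 7.82% of all genes, and for Idh1 and Tdg (lower) in Tet2 cKO, beside 5.97%. In Tet1/2 cKO no member was without overlap, beside 17.4% of genes, and limma called no gene (0%, with 5.05% at an unadjusted p under 0.05, none of them a member). Over 6 libraries against 6, no member passed with floxed Tet1 (0.0179% of genes called, 4.87% at an unadjusted p under 0.05) or with floxed Tet2 (0%, with 2.43% at an unadjusted p under 0.05). For the interaction of both deletions, 0.0119% of genes passed, again Tdg (higher, 0.00596%) and Tdg-ps2 (lower, 0.00596%). None of the 82 tested list genes passed in any of these comparisons. Osteoblast and osteocyte markers summed to 317505 to 701512 normalized counts in Tet1/2 cKO and 1012730 to 1307176 in Ctrl, and skeletal muscle markers to between 2621 and 1323218 across the 12 libraries. Their part in these values was not tested.

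The genes most alike in pattern were found by the lower of the Pearson correlations of log2 levels over the 9 VitC and over the 12 Tet libraries, among 11191 genes. These are descriptions, since libraries share depth and cell mixture. For Uhrf1 they were Mcm3 (0.95 and 0.96), a replicative helicase subunit, Nsl1 (0.95 and 0.95), of the kinetochore, and Fen1 (0.96 and 0.94), a replication nuclease. For Dnmt1 they were Nup107 (0.98 and 0.96) and Nup205 (0.95 and 0.97), of the nuclear pore, and Kif14 (0.97 and 0.94), a mitotic kinesin.

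For Tet2 they were Ikzf5 (0.91 and 0.86), Mysm1 (0.97 and 0.83), a histone deubiquitinase, and Atf2 (0.92 and 0.82), a stress-responsive transcription factor. For Tet3 they were Ddhd1 (0.91 and 0.83), Rnf169 (0.86 and 0.79) and Gabpb1 (0.77 and 0.84). For Idh1 they were Ywhab (0.96 and 0.95), Khdrbs1 (0.96 and 0.93) and St8sia4 (0.97 and 0.92), and for Idh2 Chchd3 (0.88 and 0.87), Polr2m (0.91 and 0.87) and Mreg (0.85 and 0.87). For Dnmt3a they were Pomt2 (0.87 and 0.79), Heph (0.81 and 0.78) and Ttc21b (0.78 and 0.93), and for Dnmt3b Recql4 (0.79 and 0.76), Mospd3 (0.74 and 0.78) and Vars (0.72 and 0.71).

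5hmC, the product of the TET enzymes, was then read at the members' own loci. Each peak list stands for a pooled group, so the counts have no replicate and no test. Within 30 kb of the start sites, the members held 73 peaks in VitC+/- against 83 in VitC+ femurs, a log2 ratio of -0.19, against -0.02 over 20558 genes. Of the 10 members 6 had fewer peaks, 2 more and 2 as many, beside 43.3% of genes with fewer and 39.1% with more. With a −log10 q of at least 5, 4 had fewer and 4 more, beside 37.1% and 43.2% of genes. The log2 ratio was then -0.05, against 0.03 over all genes. Tet2 had 18 against 13, more than 90.5% of genes in VitC+/-, but its peaks covered 8966 against 10274 bases. Tdg had 12 peaks against 9. Tet1 had 5 against 9, Tet3 7 against 11 and Idh2 4 against 10, while Idh1 had 13 against 14 and Dnmt1 1 in each. Over the whole gene body, Tet2 held 27 peaks in both groups and Tet1 12 against 21. All members together held 80 against 109 there, a log2 ratio of -0.45, against -0.05 over all genes. Of them 7 had fewer and 0 more, beside 29.8% and 20.8% of genes. By covered length within 30 kb the log2 ratio was -0.45, against -0.13, with 8 lower and 2 higher, beside 58.2% and 40.4% of genes. Within 10 kb it was -0.36, against -0.04, with 5 lower and 3 higher, beside 31.9% and 29.2%.

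In Tet1/2 cKO femurs the members held 71 peaks against 118 in Ctrl, a log2 ratio of -0.73, beside -0.84 over all genes, and all 10 members had fewer, beside 77.3% of all genes. Within 10 kb 7 had fewer and 1 more, beside 60.3% and 5.77% of all genes. Over gene bodies 8 had fewer, beside 56.7% of all genes. The lists themselves held 146626 and 259326 peaks, so the members moved with the whole list. Dnmt1 had 7 against 16 and Dnmt3b 0 against 4, while Idh2 had 15 against 17 and Dnmt3a 12 against 14. In MC3T3-E1 cells cultured for 28 days, the members held 65 peaks without VitC and 120 with 50 µg/ml VitC, a log2 ratio of -0.88, beside -0.29 over all genes. Here the list without VitC was the longer, at 288862 against 257696 peaks. Of the 10 members 8 had fewer without VitC, 1 more and 1 as many. Over all genes, 53.9% had fewer and 40.7% more. Idh2 had 4 peaks without VitC and 19 with it, Tet3 12 and 20, Dnmt3a 11 and 20, Tet2 7 and 14 and Dnmt1 3 and 10. Idh1 had 8 and 10, Uhrf1 4 and 8 and Dnmt3b 2 and 6. Tet1 had 8 in both and Tdg 6 against 5.

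**Figure D5:**
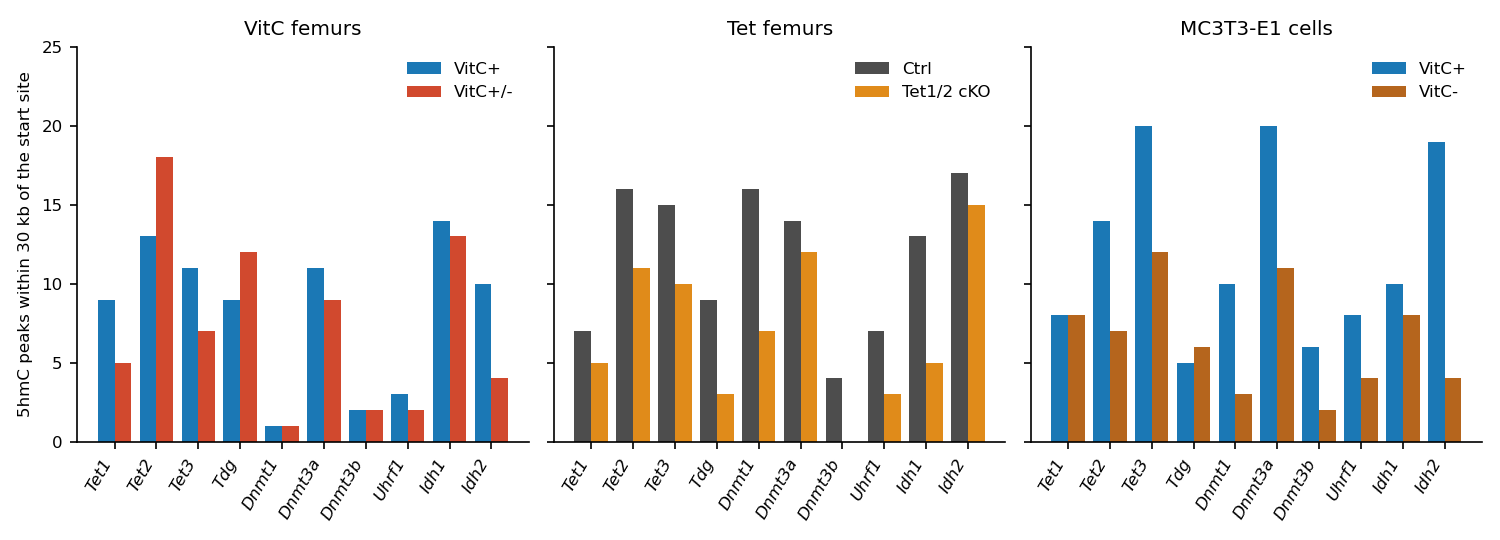
Number of 5hmC peaks within 30 kb of each member's start site (vertical axis) in 6 pooled lists: femurs of VitC+, VitC+/-, Ctrl and Tet1/2 cKO mice, and the cell line grown with VitC or without it. Idh2 drops from 19 to 4 in cells without VitC, and all 10 members have fewer peaks within this window in Tet1/2 cKO than in Ctrl.

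Stretches close to a member's start site with a peak in 5 or all 6 of the 5hmC lists are shown, since they recur across femurs and cells. They lay between positions -1045 (Tet3) and 2030 (Idh1) relative to the start site. Any recurring sites farther out, as in the rest of the gene bodies, are not reported here. The sequences are read 5′ to 3′ on the minus strand of GRCm38.p6 (mm10), on which these genes lie, with each CpG in capitals. Upstream of Tet2, 151 bases at chr3:133545332-133545482 lay in all 6 lists, from position -346 to -196 relative to the start site. Upstream of Tet3, 237 bases at chr6:83458017-83458253 lay in every list but MC3T3-E1 without VitC. In an intron of Idh1, 215 bases at chr1:65184449-65184663 lay in every list but Tet1/2 cKO, and 192 bases at chr1:65185463-65185654 in every list but VitC+/-.
Tet2 upstream: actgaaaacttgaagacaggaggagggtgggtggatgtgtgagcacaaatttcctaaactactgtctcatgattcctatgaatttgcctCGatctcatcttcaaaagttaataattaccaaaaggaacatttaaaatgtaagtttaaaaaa
Tet3 upstream: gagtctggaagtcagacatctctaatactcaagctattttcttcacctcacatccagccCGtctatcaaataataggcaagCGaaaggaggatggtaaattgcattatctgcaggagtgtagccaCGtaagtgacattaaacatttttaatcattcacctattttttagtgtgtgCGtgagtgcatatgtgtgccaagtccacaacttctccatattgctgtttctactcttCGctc
Idh1 intron, first site: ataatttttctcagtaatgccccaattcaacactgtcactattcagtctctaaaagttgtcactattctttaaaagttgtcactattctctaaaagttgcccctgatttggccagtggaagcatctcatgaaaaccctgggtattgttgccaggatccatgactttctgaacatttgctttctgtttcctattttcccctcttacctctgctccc
Idh1 intron, second site: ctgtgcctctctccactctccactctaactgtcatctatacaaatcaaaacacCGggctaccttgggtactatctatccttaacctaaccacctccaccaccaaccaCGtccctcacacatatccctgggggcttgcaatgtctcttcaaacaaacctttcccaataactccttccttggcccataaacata

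The Tet2 site had a fold enrichment over the local background of 12.8 in VitC+/- and 11.9 in VitC+ femurs, 3.56 in Ctrl and 5.54 in Tet1/2 cKO femurs, and 11.5 with and 3.44 without VitC in MC3T3-E1 cells, where its −log10 q was 37.0 and 4.02. The Tet3 site had a fold of 4.81 in VitC+/-, 4.26 in VitC+, 9.86 in Ctrl, 10.2 in Tet1/2 cKO and 13.6 in MC3T3-E1 cells with VitC. The Idh1 site missing from Tet1/2 cKO had a fold of 8.20 in VitC+/- and 5.53 in VitC+ femurs, and the site missing from VitC+/- had 3.71 in VitC+. In Ctrl and in MC3T3-E1 cells with VitC, a single peak spanned both Idh1 sites. These sites held 1, 5, 0 and 2 CpG. RefSeq promoter windows had a median of 2.33 CpG per 100 bases. The promoter window of Tet2 itself, chr3:133544341-133544640, held 19 CpG per 100 bases, more than 99.8% of 32851 windows, and those of Dnmt3a held 15.3, 15.7 and 6.0. This Tet2 window lies within the gene as annotated, downstream of the start site at chr3:133545136 from which the positions of its site were counted.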

How the data were processed

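The members and gene lists were chosen with earlier results of these data known. RNA-seq reads were, per the labels, trimmed with Trim Galore 0.4.3.1, aligned to mm10 with STAR 2.6.0b-1 and counted with featureCounts 1.6.3, and the authors deposited RPKM values for the VitC femurs (the study's methods name cufflinks for FPKM and no program for RPKM) and, for the Tet femurs, a normalized count signal, that is DESeq2 counts divided by size factors. In 12 of 12 Tet libraries, the values multiplied back gave whole reads (tolerance 0.05) for 100% of genes; count tools used 11 of them, since the size factor of Tet1 cKO 3 was too close to 1 to be accepted. hMeDIP-seq and ChIP-seq peaks were called by the authors with MACS2 2.1.1.20160309.6 on pooled groups, with a fold over the local background and a −log10 q value in the deposited lists.

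Each library's RPKM were scaled by the median ratio of its genes to their geometric mean over the 9 libraries and tested on log2(RPKM + 0.5), and normalized counts on log2(value + 1), with limma 3.58.1 in R 4.3.3, a term for group, all libraries of an experiment and Benjamini-Hochberg adjustment over all genes tested. Genes needed 1 RPKM, or 10 normalized counts, in 3 libraries. A call was an adjusted p under 0.05. edgeR 4.0.16 and DESeq2 1.42.0 on recovered reads were alternatives. Femur libraries were biological triplicates per the study's methods. All 10 members were named; at most 3 list genes in each direction were named per comparison, by size of change among those called, and 3 genes of like pattern per tested member. A list gene that this rule names is not reported here. The lists were base excision repair, readers of modified DNA, partners and regulators, methyl donor cycle, 2-oxoglutarate and its competitors, and proliferation. Tests recovered known changes in simulated data. Those changes were larger than that of any tested member in the VitC femurs, and recovery of smaller ones was not tested. Sequences came from the RefSeq genome GRCm38.p6.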

Additional observations from a re-analysis of the deposited data

Results flagged for a closer look

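Tdg was flagged because the effect of one TET deletion on it differed with the other present: the interaction in limma was 4.38 on the log2 scale (SE 0.31, adjusted p = 0.0003), since Tdg was low in the libraries labelled Tet1 cKO or Tet2 cKO and not in Tet1/2 cKO. Tdg-ps2 was flagged for the opposite interaction, -9.03 on the log2 scale (limma adjusted p = 0.0004). For the sum of Tdg and Tdg-ps2 the interaction was -0.33 (limma adjusted p = 0.564). Groups of 3 libraries are too small for a test of single outlying libraries.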

How the results depend on the processing

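Of 192 alternative values of the counts and peak ratios 165 stayed on their side, and of 1704 values of single members 1663. For VitC+/- against VitC+, 2 members passed, 1 without the further scaling (which moved the median of all genes from 0.02 to 0.14 on the log2 scale and the calls from 1692 to 876) and 0 to 2 when 1 library was left out, with 487 to 2296 genes called. Against WT, 3 members passed, 1 without the further scaling and 1 in a fit of the groups compared alone (the cause was not tested), and 1 to 3 when 1 library was left out, with 2275 to 4113 genes called. Upper quartile scaling left 2, without Idh2. Without the filter 3 passed, with Tet1 (adjusted p = 0.0224) in place of Tet2 (0.0599). Without WT 1, the shallow library, Tet2 was lost (adjusted p = 0.096) and Dnmt1 passed (adjusted p = 0.0349), in limma. VitC+ against WT called 10 genes in a fit of the groups compared alone, 17 under upper quartile scaling and up to 604 with 1 library left out, none of them a member.

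In the Tet femurs, the count of 1 for Tet1 cKO was 0 in a fit of the groups compared alone, with edgeR, with Tdg and Tdg-ps2 summed (an alternative chosen after seeing the data), and 0 to 1 when 1 library was left out (0 without Ctrl 1, Ctrl 3, Tet1 cKO 1 or Tet1 cKO 3). For Tet2 cKO it was 0 in a fit of the groups compared alone, 0 when summed, and 0 to 1 (0 without Ctrl 1, Ctrl 2, Ctrl 3 or Tet2 cKO 2). The log2 fold change of Tdg stayed at -2.39 to -2.04 in both single cKOs in every setting but the sum, which turned it to 0.14, 0.21 and, for the interaction, -0.33, with 0 interactions called. DESeq2 called 13, 15, 11 and, for the interaction, 35 genes, edgeR 0, 1, 0 and 2.

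With the replicate number as a block, 0 members passed for Tet1 cKO (Tdg adjusted p = 0.0819) and 0 for Tet2 cKO (0.0861), while Tet3 passed against VitC+ (0.0312) and Dnmt1 against WT (0.0365), and VitC+ against WT called 774 genes, no member among them. Same-numbered libraries correlated between -0.19 and 0.46 in the VitC (median 0.09) and between -0.57 and 0.53 in the Tet femurs (median -0.16). Libraries of different numbers correlated between -0.37 and 0.41 (median -0.07) and between -0.62 and 0.55 (median 0.11). Whether a number marks a shared batch or pairing cannot be told from these overlapping ranges. By covered length, the 5hmC log2 ratio of MC3T3-E1 cells was -1.55, against -0.78 over all genes. Pooled peak lists allow no error.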

Other observations

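Histone marks were listed at the same loci in MC3T3-E1 cells, as peak counts of pooled lists with no test. Their culture time is not used here. Within 30 kb of the Tet1 start site lay 13 H3K27me3 peaks without VitC and 10 with it, more than 98.0% and 89.7% of genes, and Tet2 had 5 and 3. By length this order differed, since the Tet1 peaks covered 19307 and 11025 bases. Tet3, with 1 peak in each list, had 14506 and 17804 bases covered, and Dnmt3b, with 1 and 2 peaks, 15311 and 12873. Dnmt1, Idh1 and Idh2 had 0 in both lists. Over all 10 members there were 24 and 23 H3K27me3 peaks, and 9 and 6 H3K9me3 peaks. The means per member were 2.4 and 2.3 for H3K27me3, beside 2.73 and 3.23 over all 20558 genes. For H3K9me3 they were 0.9 and 0.6, beside 1.22 and 0.858.

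No 5hmC peak lay within the gene body of Uhrf1, 20.15 kb long, in any of the 6 lists. Dnmt3a, 113 kb long, held 40 in Ctrl and 13 in VitC+ femurs, which are lists of different experiments. Per kb this was 0.354 and 0.115 peaks, beside 0.160 and 0.196 over all gene bodies.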
